A study of Mus musculus with 9 samples.

Results

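The 10 genes *Pecam1*, *Kdr*, *Flt1*, *Cdh5*, *Tek*, *Tie1*, *Plvap*, *Emcn*, *Eng* and *Egfl7* are widely used as markers of endothelial cells, and were looked up by symbol in the table of 26858 genes, where all 10 were found. They were measured by RNA-seq in eGFP+ cells sorted from kidneys of embryos at age E18.5, with 4 libraries from *Six2-Qpc*+/− control mice (heterozygous, replicates 71, 72, 73 and 76) and 5 from *Six2-Qpc*−/− mutant mice (knockout, replicates 74, 75, 77, 78 and 79). Mice of both groups carried the *Six2-eGFP/cre* bacterial artificial chromosome transgene, in which the *Six2* promoter drives Cre fused to eGFP, and the floxed *Uqcrq* gene, which encodes the mitochondrial complex III subunit QPC, so that 1 allele was inactivated in control cells and both were in mutant cells. Recombination was thus limited to cells in which the *Six2* promoter was or had been active, and the eGFP used for the sort was made where it was active. The paper does not fully exclude that differentiating control cells with low GFP were also sorted. A label for litter or sort date was not given. The study counts its replicates as mice, the labels do not name the embryo or litter behind each library, and p-values measure the spread between these libraries.

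Endothelial cells line blood vessels and are held together by the adhesion molecules PECAM1 and VE-cadherin (encoded by *Cdh5*). They respond to vascular endothelial growth factor (VEGF) through the receptors KDR and FLT1, and to angiopoietins through TEK and its relative TIE1. In the developing kidney they vascularize glomeruli and the spaces between tubules, they lie next to the cap mesenchyme, and they do not arise from SIX2 progenitors. The comparison asks how much RNA of these genes was in the sorted cells, and whether it differed between mutant and control cells. In bulk RNA, fewer cells of a type and less RNA per cell cannot be told apart.

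*Egfl7*, which encodes a secreted protein of the vessel wall, lies on chromosome 2 from 26580014 to 26593120 (plus strand, GRCm38) and is the host gene of miR-126a, a microRNA abundant in endothelium. The hairpin, on chromosome 2 from 26591357 to 26591429, lay in an intron of 7 of the 12 protein-coding *Egfl7* transcripts of GENCODE M21 and in an exon of none of them. It lay in an exon of 1 *Egfl7* transcript not annotated as protein-coding. RefSeq (GRCm38.p6) gives the 3′ arm of miR-126a, whose seed (bases 2 to 8) is in capitals, and the hairpin. The microRNA itself was not measured in these poly(A)-selected libraries, and the sequences are shown to locate it within a gene whose reads fell.
mmu-miR-126a-3p: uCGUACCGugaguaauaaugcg
miR-126a hairpin: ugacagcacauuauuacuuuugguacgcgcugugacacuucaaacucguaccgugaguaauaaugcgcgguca

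RefSeq held promoter windows (250 bases before to 50 after a start site) for 7 of the 10 genes, with 3 start sites for *Egfl7* and 1 each for *Kdr*, *Flt1*, *Tek*, *Tie1*, *Emcn* and *Eng*. The letters AGGAAG, a form of the core bound by ETS factors, which are active in endothelial and many other cells, were searched on both strands. They occurred in 6 of these 9 windows, or in 5 of the 7 genes, with no match for *Kdr* and *Tek*. Over all genes they occurred in 35.4% of 32851 windows of the same length. The 3 windows of *Egfl7* are printed because a count per gene does not tell its start sites apart, and that of *Tie1* because its reads were near 0; capitals mark the motif on either strand. The first *Egfl7* window held 3 matches, at −216, −89 and −49 bases from the start site (first base of the match, with the start site at 0), the second held 2, at −80 and 40, and the third 0. *Tie1* held 2, at −219 and 33. A match describes the letters alone.
Egfl7 window 1, chr2:26580833-26581132, plus strand: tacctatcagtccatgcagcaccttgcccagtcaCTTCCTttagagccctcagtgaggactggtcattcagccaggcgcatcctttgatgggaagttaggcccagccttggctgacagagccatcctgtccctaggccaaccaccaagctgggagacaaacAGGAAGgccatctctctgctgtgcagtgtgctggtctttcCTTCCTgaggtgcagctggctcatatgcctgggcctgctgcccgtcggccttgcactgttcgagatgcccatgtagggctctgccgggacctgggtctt
Egfl7 window 2, chr2:26583615-26583914, plus strand: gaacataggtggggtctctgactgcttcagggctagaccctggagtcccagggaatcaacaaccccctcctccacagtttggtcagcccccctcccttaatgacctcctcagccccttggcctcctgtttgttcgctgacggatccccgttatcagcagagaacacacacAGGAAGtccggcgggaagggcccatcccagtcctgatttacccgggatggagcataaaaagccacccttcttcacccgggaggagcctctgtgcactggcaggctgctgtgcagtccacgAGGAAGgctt
Egfl7 window 3, chr2:26586386-26586685, plus strand: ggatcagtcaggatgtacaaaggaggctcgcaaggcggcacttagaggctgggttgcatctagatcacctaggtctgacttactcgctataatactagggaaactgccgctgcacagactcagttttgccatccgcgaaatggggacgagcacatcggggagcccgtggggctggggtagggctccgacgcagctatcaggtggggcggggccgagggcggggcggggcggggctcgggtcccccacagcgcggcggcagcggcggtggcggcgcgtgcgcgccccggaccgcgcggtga
Tie1 window, chr4:118489800-118490099, minus strand: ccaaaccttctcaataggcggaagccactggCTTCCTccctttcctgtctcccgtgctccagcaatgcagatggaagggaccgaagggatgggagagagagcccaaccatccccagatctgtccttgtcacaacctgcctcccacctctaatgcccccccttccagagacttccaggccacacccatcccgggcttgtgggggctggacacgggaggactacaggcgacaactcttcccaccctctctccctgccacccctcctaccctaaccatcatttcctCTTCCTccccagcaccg

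Between 21040536 and 23986458 reads were counted per library. The targeted gene *Uqcrq* averaged 94.1 ± 13.3 CPM (SD) in the 4 control libraries and 21.3 ± 4.45 CPM in the 5 mutant libraries, where CPM is reads per 1000000 after scaling by the TMM factors, and 386 to 637 reads remained in each mutant library. Of 14990 genes that passed the filter on low counts, 2225 (14.8%) had an adjusted p-value under 0.05 in edgeR's quasi-likelihood test, 7.82% higher and 7.02% lower in mutant cells. A CPM value that corresponds to 3 reads, taken here as the floor, was between 0.117 and 0.153 depending on the library.

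In control cells the 10 transcripts fell into a wide range of levels. *Plvap* and *Egfl7* were clearly expressed, *Emcn* was low, and *Eng*, *Kdr*, *Flt1*, *Pecam1*, *Tek*, *Tie1* and *Cdh5* were near or at 0. In reads per kilobase of gene length and per 1000000 reads of the library (RPKM), the mean of control libraries was 8.80 ± 1.53 (SD, n = 4) for *Plvap*, 6.19 ± 0.0820 for *Egfl7* and 0.765 ± 0.391 for *Emcn*. The next were *Eng* at 0.176 ± 0.0903, *Pecam1* at 0.0722 ± 0.0498, *Kdr* at 0.0695 ± 0.0241 and *Flt1* at 0.0594 ± 0.0379 RPKM. The lowest were *Tek* at 0.0269 ± 0.0315, *Tie1* at 0.00920 ± 0.0184 and *Cdh5* at 0.00265 ± 0.00529 RPKM. By the spread between libraries, neighbours in this order did not separate from each other, from *Eng* down to *Cdh5*. Levels between genes depend on the gene lengths used, which came with the counts. These were 2015 bases for *Plvap* and 1865 for *Egfl7*, against 1987 and 3581 exonic bases in GENCODE M21. Against all 26858 genes of the table, *Plvap* ranked 6397 and *Cdh5* ranked 23212 by control level. The progenitor gene *Six2*, the source of the sorting signal, had 269 ± 25.2 RPKM in control cells, so that *Plvap* stood at 3.27% and *Cdh5* at 0.000982% of its level.

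**Figure D1:**
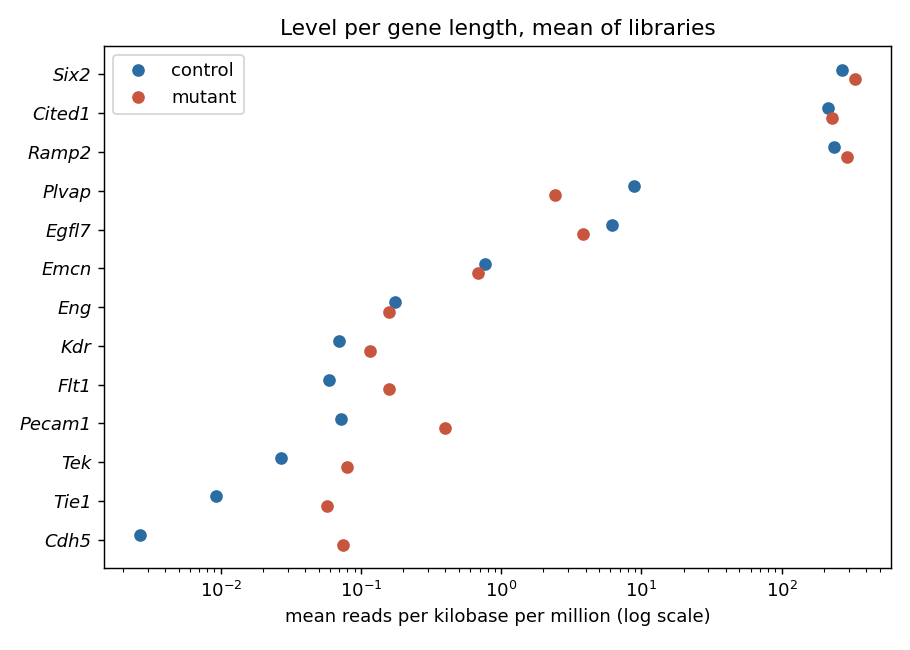
Mean level per gene length of the 10 endothelial transcripts and of 3 abundant genes of the sorted cells (*Six2*, *Cited1* and *Ramp2*), in RPKM on a log scale, with control and mutant means as separate points. *Plvap* and *Egfl7* lie far above the other members in control cells, at 8.80 and 6.19, and *Cdh5* is lowest at 0.00265.

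Of the 10 members, 7 passed the filter on low counts, and 3 of these had an adjusted p-value under 0.05, with *Plvap* and *Egfl7* lower and *Pecam1* higher in mutant cells. These 3 were also the only members with an unadjusted p under 0.05, which 31.4% of all tested genes had. The median log2 fold change of the 7 was −0.14, against −0.0085 over all tested genes. *Pecam1* passed the filter through its mutant libraries, and *Tek*, *Tie1* and *Cdh5* were not tested in this fit, so the number does not describe all members. In CPM the genotypes did not overlap for the same 3 of the 7 tested members, whereas 15.2% of all tested genes had no overlap (7.5% higher and 7.73% lower). They did not overlap for *Cdh5* either, which lies outside the genes behind these shares.

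*Plvap* encodes the protein that forms the diaphragms of fenestrated endothelium. The gene (ENSMUSG00000034845, chromosome 8, 71497754 to 71511769) had 496, 352, 417 and 438 reads in control replicates 71, 72, 73 and 76, and 116, 106, 140, 104 and 50 reads in mutant replicates 74, 75, 77, 78 and 79. The genotypes did not overlap, and mutant replicate 79 was the lowest. It averaged 17.7 ± 3.07 CPM (SD) in the 4 control libraries and 4.83 ± 1.73 CPM in the 5 mutant libraries, and the log2 fold change was −1.88 with a standard error of 0.27 and an adjusted p-value of 0.00121 in edgeR. A 2-sided exact permutation test of the CPM values gave p = 0.00794, the smallest that 4 libraries against 5 allow. The span of *Plvap* overlaps that of *Gtpbp3* on the opposite strand over 1819 bases, with no exonic base in common in GENCODE M21. *Gtpbp3* itself had 14.1 ± 5.56 CPM in control and 14.5 ± 4.26 CPM in mutant cells (adjusted p = 0.935, edgeR), unlike *Plvap*.

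*Egfl7* (ENSMUSG00000026921) had 274, 296, 269 and 276 reads in control replicates 71, 72, 73 and 76, and 188, 180, 120, 142 and 151 reads in mutant replicates 74, 75, 77, 78 and 79. Control libraries were close to each other and all mutant libraries lay below them. It averaged 11.5 ± 0.153 CPM (SD) in the 4 control libraries and 7.19 ± 0.804 CPM in the 5 mutant libraries, and the log2 fold change was −0.68 with a standard error of 0.17 and an adjusted p-value of 0.018 in edgeR. The 2-sided exact permutation test gave p = 0.00794. Without control replicate 73 the change was −0.69 but the adjusted p-value was 0.0549. The protein-coding gene *Gm20532* overlaps *Egfl7* on the same strand over 6482 bases, with 264 exonic bases in common in GENCODE M21. The 3′ end of *Egfl7* shares 64 exonic bases with *Agpat2* on the opposite strand, and reads carried no strand information. *Agpat2* fell as well, from 42.8 ± 4.08 to 30.5 ± 4.43 CPM (log2 fold change −0.49, adjusted p = 0.0317, edgeR), and the part of shared reads in the result for *Egfl7* was not tested.

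*Emcn* and *Eng* encode the surface glycoproteins endomucin, a sialomucin of venous and capillary endothelium, and endoglin, a coreceptor for the BMP9 family that is also made by mesenchymal cells. *Emcn* (ENSMUSG00000054690, chromosome 3, 137341067 to 137432185) had 46, 39, 110 and 63 reads in control replicates 71, 72, 73 and 76, and 46, 85, 53, 42 and 33 reads in mutant replicates 74, 75, 77, 78 and 79. The genotypes overlapped over most of their range, at 2.69 ± 1.38 CPM (SD, n = 4) and 2.40 ± 0.876 CPM (SD, n = 5), and edgeR gave a log2 fold change of −0.17 with a standard error of 0.38 and an adjusted p-value of 0.802. *Eng* (ENSMUSG00000026814, chromosome 2, 32646595 to 32682669) had 8 to 25 reads per control library and 5 to 21 per mutant library, with means of 0.628 ± 0.323 and 0.567 ± 0.303 CPM (log2 fold change −0.14, standard error 0.54, adjusted p = 0.888, edgeR). The standard errors leave differences of this size and larger undetermined in either direction, and the sign of *Emcn* turned without control replicate 73 and that of *Eng* without control replicate 76 or mutant replicate 75. *Eng* shares 61 exonic bases with *Fpgs* on the opposite strand, and reads carried no strand information. *Fpgs* had 729 to 1097 reads per library, at 41.5 ± 3.53 CPM in control and 40.5 ± 4.48 CPM in mutant cells (adjusted p = 0.881, edgeR). The part of shared reads in the result for *Eng* was not tested.

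**Figure D2:**
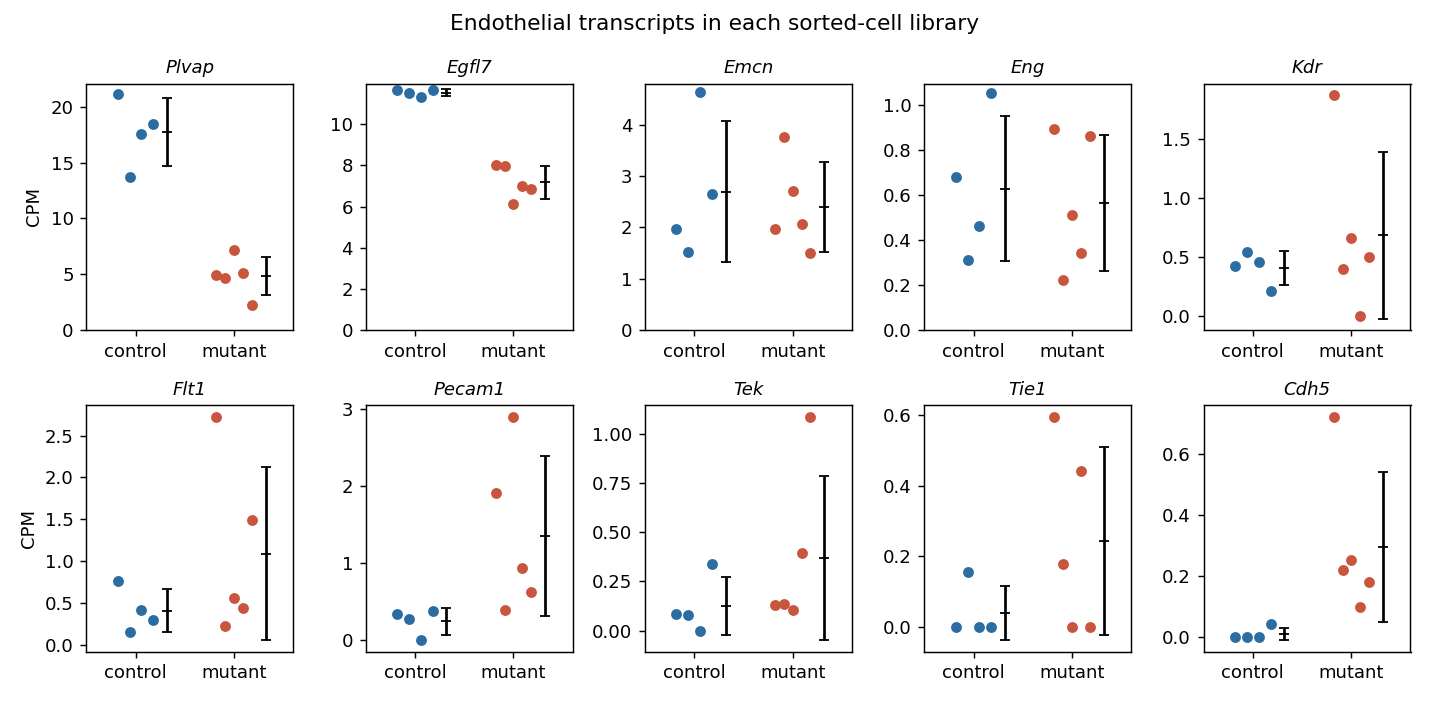
CPM of each of the 10 endothelial transcripts in 4 control and 5 mutant libraries (points), with the mean and SD beside each group, each panel on its own axis from 0 or below. *Plvap* and *Egfl7* are lower in all 5 mutant libraries, while *Kdr*, *Flt1*, *Tie1* and *Cdh5* are highest in mutant replicate 74, *Tek* in replicate 79 and *Pecam1* in replicate 77.

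*Pecam1*, the adhesion molecule of endothelial cell contacts that is also carried by platelets and some leukocytes, was the only member past the threshold in the other direction. The gene (ENSMUSG00000020717, chromosome 11, 106654217 to 106750628) had 8, 7, 0 and 9 reads in control replicates 71, 72, 73 and 76, and 45, 9, 57, 19 and 14 reads in mutant replicates 74, 75, 77, 78 and 79. Mutant replicates 74 and 77 stood well above the rest, and mutant replicate 75 had as many reads as control replicate 76. The latter had the smaller total count, so that the genotypes are kept apart in CPM only by the TMM factors, at 0.398 CPM in mutant replicate 75 and 0.380 CPM in control replicate 76. The means were 0.248 ± 0.171 CPM (SD, n = 4) and 1.36 ± 1.04 CPM (SD, n = 5), and edgeR gave a log2 fold change of 2.42 with a standard error of 0.76 and an adjusted p-value of 0.047. The 2-sided exact permutation test gave p = 0.0476. The call was lost without any 1 control library, with adjusted p-values of 0.0586 to 0.102, and *Pecam1* did not pass the filter without mutant replicate 74, 77, 78 or 79.

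*Cdh5*, whose product VE-cadherin is largely restricted to endothelium, had 0, 0, 0 and 1 read in control replicates 71, 72, 73 and 76, and 17, 5, 5, 2 and 4 reads in mutant replicates 74, 75, 77, 78 and 79 (ENSMUSG00000031871, chromosome 8, 104101625 to 104144502). Each mutant library thus had more reads than any control library, although at most 17. Relative to the normalized library sizes the ratio of summed reads, mutant over control, was 29.5 with a 95% exact interval of 4.94 to 1200.2 that covers counting error only and not the spread between libraries. The 2-sided exact permutation test gave p = 0.0159. *Cdh5* did not pass the filter, and without a filter beyond 1 count edgeR gave an adjusted p-value of 0.039.

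The receptors had few reads in control libraries, at most 18, and in mutant libraries their reads varied from 0 to 64. *Kdr* (ENSMUSG00000062960, chromosome 5, 75932827 to 75978458), the main signalling receptor for VEGF, had 10, 14, 11 and 5 reads in control replicates 71, 72, 73 and 76, and 44, 9, 13, 0 and 11 in mutant replicates 74, 75, 77, 78 and 79. Its mutant libraries ranged from below to above all control libraries, and its log2 fold change, 0.74 with a standard error of 0.77 and an adjusted p-value of 0.553 in edgeR, became −0.079 without mutant replicate 74. *Flt1* (ENSMUSG00000029648, chromosome 5, 147561604 to 147726011), which binds VEGF strongly and also exists in a soluble form that acts as a decoy, had 18, 4, 10 and 7 reads in control replicates 71, 72, 73 and 76, and 64, 5, 11, 9 and 33 in mutant replicates 74, 75, 77, 78 and 79. Only mutant replicates 74 and 79 exceeded the highest control library. The fitted log2 difference was 1.41 with a standard error of 0.71 and an adjusted p-value of 0.193 in edgeR's test, and was 0.73 without mutant replicate 74.

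*Tek* (ENSMUSG00000006386, chromosome 4, 94739289 to 94874976) had 2, 2, 0 and 8 reads in control replicates 71, 72, 73 and 76, and 3, 3, 2, 8 and 24 reads in mutant replicates 74, 75, 77, 78 and 79. Apart from replicate 79 no mutant library was above the highest control library by reads. *Tie1* (ENSMUSG00000033191, chromosome 4, 118471191 to 118490061) had 0, 4, 0 and 0 reads in control replicates 71, 72, 73 and 76, and 14, 4, 0, 9 and 0 in mutant replicates 74, 75, 77, 78 and 79. Zeros occurred in both genotypes. The 2-sided exact permutation tests gave p = 0.349 for *Tek* and p = 0.206 for *Tie1*, and without a filter edgeR gave adjusted p-values of 0.37 and 0.284. The ratio of summed reads, mutant over control, was 2.98 for *Tek* (95% exact interval 1.53 to 6.24) and 6.03 for *Tie1* (2.10 to 23.7), where the intervals cover counting error only. Neither difference was larger than the spread between libraries by these tests.

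The summed level of the 10 members was 37.1, 28.3, 34.9 and 35.1 CPM in control replicates 71, 72, 73 and 76, and 23.8, 18.2, 20.96, 16.8 and 15.4 CPM in mutant replicates 74, 75, 77, 78 and 79. It was lower in each mutant library, and the mean of mutant libraries was 0.562 of that of control libraries. *Plvap* and *Egfl7* made up 82.9% to 89.3% of the sum in control and 54.5% to 71.9% in mutant libraries. The 7 members other than *Plvap*, *Egfl7* and *Emcn*, a division made after the values were seen, summed to between 1.35 and 2.32 CPM in control libraries, and to 8.86, 1.77, 5.00, 2.66 and 4.76 CPM in mutant replicates 74, 75, 77, 78 and 79. Mutant replicate 75 thus lay within the control range, and replicate 74 was the highest.

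**Figure D3:**
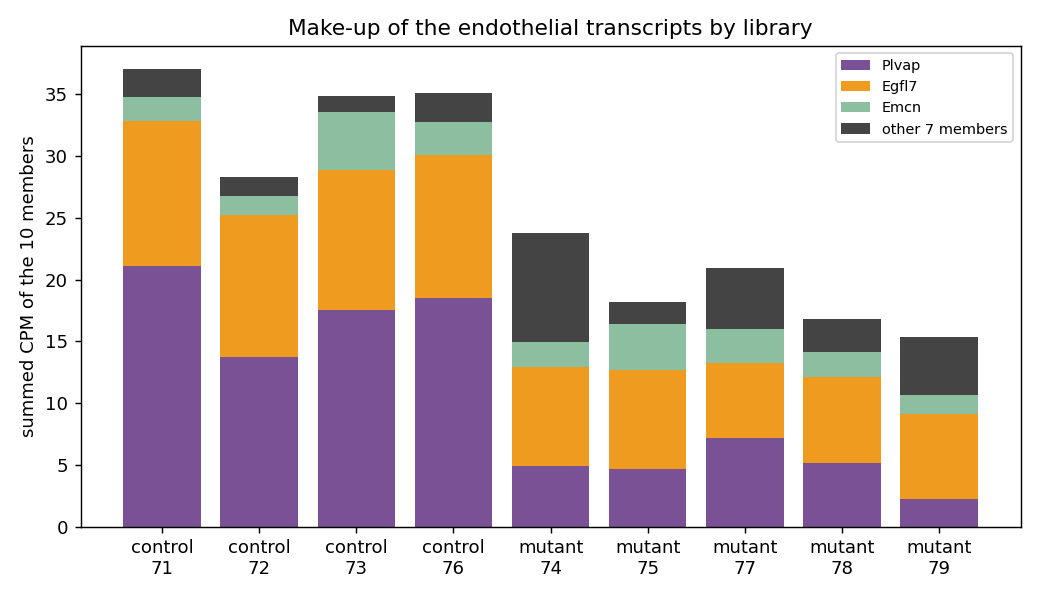
Summed CPM of the 10 endothelial transcripts in each library, stacked by *Plvap*, *Egfl7*, *Emcn* and the other 7 members. The sum lies between 28.3 and 37.1 CPM in control libraries and between 15.4 and 23.8 CPM in mutant libraries, while the part of the other 7 is largest in mutant replicate 74, at 8.86 CPM.

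Markers of other cell types that a sort of kidney cells could hold were summed in the same libraries. The 12 myeloid genes summed to between 0.548 and 16.8 CPM in control and to 10.1, 66.3, 175, 70.8 and 57.3 CPM in mutant replicates 74, 75, 77, 78 and 79. Mutant replicate 77, the highest for *Pecam1*, was also the highest for these genes. Replicate 74, the highest for *Cdh5*, *Tie1*, *Kdr* and *Flt1*, was the lowest of the mutant libraries. It was nevertheless the second highest for *Pecam1*, at 1.92 CPM against 2.91 CPM in replicate 77 and 0.935 CPM in replicate 78. Of the 12 myeloid genes 11 were tested, with positive log2 fold changes, and 4 passed the threshold, which 14.8% of all tested genes passed. The 11 tested genes passed the filter only with their mutant libraries, so that positive log2 fold changes were favoured by the filter. The 4 called were *Fcgr1*, *Tyrobp*, *Aif1* and *Mrc1*, with 0 to 7, 1 to 37, 0 to 18 and 0 to 27 reads per control library. *Cx3cr1*, not tested, had 17 reads over all control and 8 over all mutant libraries. The 6 platelet genes, mostly *Pf4* in mutant libraries, summed to 1.602 to 7.01 CPM in control and 6.82 to 45.5 CPM in mutant libraries, and the 7 erythroid genes found to 1.39 to 2.66 and 1.52 to 2.50 CPM. Of 3 platelet genes tested 1 was called, *Ppbp*, higher, with 0 reads in every control library and in mutant replicate 79. *Ppbp* passed the filter only through its mutant libraries, so that a call could only be higher. The 10 stromal genes summed to 204 to 343 CPM in control and 429 to 1022 CPM in mutant libraries. Of these, 6 of 10 were called, all higher, where 7.82% of all tested genes were called higher. The 10 mural genes summed to 58.4 to 83.4 and 55.7 to 126.01 CPM, the 9 ureteric bud genes to 46.5 to 67.5 and 28.4 to 68.6 CPM, the 7 podocyte genes to 31.3 to 49.2 and 25.1 to 52.2 CPM, and the 10 progenitor genes to 2259 to 2724 and 2241 to 2688 CPM. Of 8 mural genes tested 2 were called, *Acta2* higher and *Cspg4* lower, and no podocyte or progenitor gene was. None of the 4 ureteric bud genes tested passed the threshold in edgeR, with 3 (*Calb1*, *Hoxb7* and *Wnt11*) at an unadjusted p under 0.05. Of the 9 ureteric bud genes, *Ret* had 11 reads over all control and 30 over all mutant libraries, *Wnt9b* 13 and 3, and *Aqp2* 20 and 2. *Gata3* had 17 and 48, and *Upk3a* 13 and 5. *Calb1* had 35 and 271 reads, of which 216 were in mutant replicate 77. *Krt8* had 485 and 732, of which 449 were in mutant replicate 74. Neither *Calb1* (log2 fold change 2.88, adjusted p = 0.154, edgeR) nor *Krt8* (0.38, adjusted p = 0.796) passed the threshold. *Wnt11* (log2 fold change −0.85, adjusted p = 0.0701) and *Hoxb7* (−0.47, adjusted p = 0.0646) were better expressed. The part of these cells in the reads of *Pecam1* and *Cdh5* was not tested. The paper reports that eGFP+ cells were a smaller share of kidney cells in mutants than in heterozygous controls. How that share bears on these reads was not tested.

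**Figure D4:**
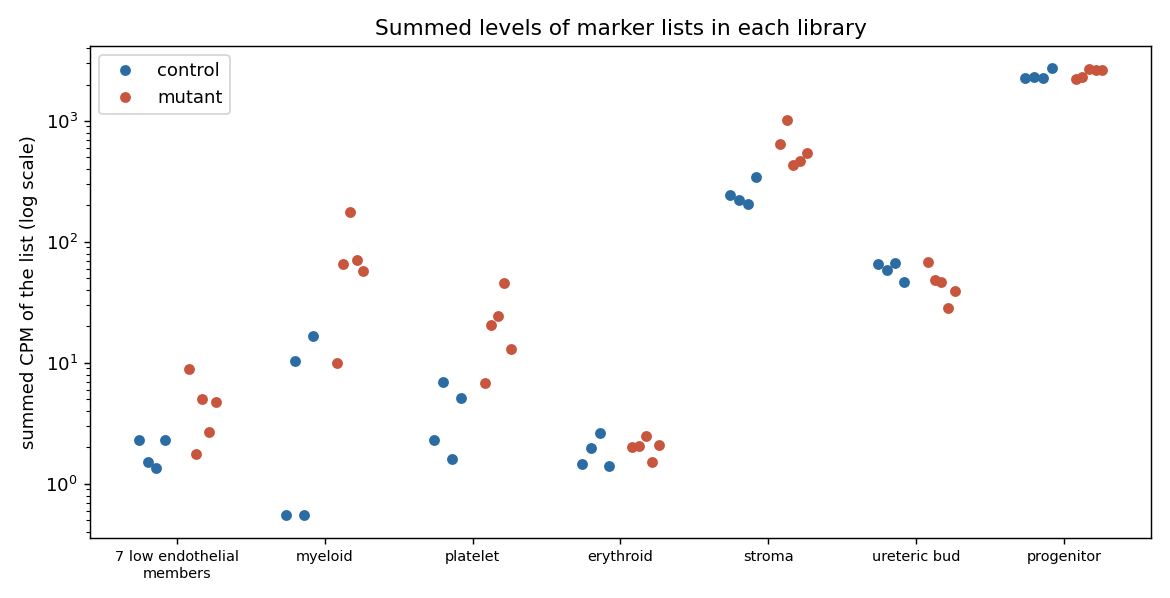
Summed CPM on a log scale, in each control and mutant library (points), of the 7 low endothelial members and of markers of myeloid cells, platelets, erythroid cells, stroma, ureteric bud and nephron progenitors. The myeloid sum spans 0.548 to 16.8 CPM in control and 10.1 to 175 CPM in mutant libraries, and the progenitor sum overlaps between genotypes.

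Levels of other endothelial genes ranged as widely. Of 41 further genes listed for endothelium (11 transcription factors and 30 others), 16 had a mean of at least 1 CPM in control cells and 24 were tested. The threshold was passed by 8 of these, 5 higher and 3 lower in mutants, where 14.8% of all tested genes passed it (7.82% higher and 7.02% lower), and the 24 had a median log2 fold change of 0.14, against −0.0085 over all tested genes. The 11 transcription factors ranged from *Lyl1*, with 0 reads in control and 0 to 2 in mutant libraries, to *Ets1*, with 593 to 950 and 370 to 798. *Erg* had 0 to 16 reads per control and 5 to 12 per mutant library, *Sox7* 1 to 8 and 0 to 14, *Sox17* 0 to 4 and 1 to 16, *Sox18* 4 to 19 in both, *Tal1* 0 to 1 and 0 to 11, and *Gata2* 1 to 30 and 0 to 19. *Fli1*, which is also made by blood cells, had 0 to 31 reads per control and 17 to 122 per mutant library (log2 fold change 2.04, standard error 0.72, adjusted p = 0.0716, edgeR). *Lmo2*, a bridging factor in endothelial and blood precursors, rose from 2.03 ± 1.07 to 5.25 ± 0.906 CPM (log2 fold change 1.37, adjusted p = 0.0161, edgeR), and *Mecom*, a zinc finger factor of blood stem cells that is also used in nephron patterning, rose from 12.3 ± 3.56 to 20.4 ± 4.13 CPM (0.73, adjusted p = 0.0426). *Ets1* had the highest level per length of the factors, 5.75 RPKM in control and 5.18 RPKM in mutant cells, with an adjusted p-value of 0.674.

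Among surface and junction genes, *Cldn5*, the claudin of endothelial tight junctions, fell from 9.99 ± 3.28 CPM in the 4 control libraries to 2.42 ± 1.49 CPM in the 5 mutant libraries, by a log2 fold change of −2.04 with a standard error of 0.42 and an adjusted p-value of 0.00831 in edgeR. *Notch4*, an endothelial Notch receptor, fell from 9.28 ± 1.66 to 5.08 ± 0.343 CPM (log2 fold change −0.87, adjusted p = 0.0117), and *Rasip1*, a regulator of vessel lumen formation, from 13.0 ± 2.92 to 7.996 ± 1.64 CPM (−0.70, adjusted p = 0.0437). *Cd34*, a sialomucin of vessels and several progenitors, rose from 14.9 ± 2.56 to 24.2 ± 2.69 CPM (0.70, adjusted p = 0.0122), and *Calcrl*, the receptor for adrenomedullin, from 31.5 ± 8.14 to 54.7 ± 13.5 CPM (0.79, adjusted p = 0.0262). *Cd93*, which is also made by myeloid cells, had 0 to 4 reads per control and 10 to 24 per mutant library (3.44, standard error 0.68, adjusted p = 0.00629), so that it passed the filter only through the mutant libraries, and it was not tested where at least 10 counts were required in every library. *Ramp2*, the partner of CALCRL, was the most abundant of the 41, at 235 RPKM in control and 292 RPKM in mutant cells (adjusted p = 0.222), and *Tm4sf1* and *Ephb4* had adjusted p-values of 0.144 and 0.762. *Cldn5* and *Notch4* kept their calls in all 15 alternatives. The number called was 3 without control replicate 73 (these and *Cd93*) and 5 without control replicate 71 or mutant replicate 75 or 78.

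The ligands and partner receptors of the members were mostly better expressed than the receptors themselves. Of 15 such genes, 12 were tested and 3 passed the threshold (14.8% of all tested genes did), all higher in mutant cells. *Angpt4*, a ligand of TEK, had 1.70 ± 0.676 CPM in control and 0.394 ± 0.373 CPM in mutant cells (log2 fold change −2.11, standard error 0.74, adjusted p = 0.0698, edgeR), and was called lower with DESeq2 and with limma-voom. *Vegfa*, the main ligand of KDR and FLT1, averaged 133 ± 8.91 CPM in the 4 control libraries and 135 ± 10.5 CPM in the 5 mutant libraries, and edgeR gave a log2 fold change of 0.019 with a standard error of 0.10 and an adjusted p-value of 0.919. Per length, *Vegfa* stood at 38.7 RPKM in control cells, *Vegfb* at 49.3 and *Pgf*, a ligand of FLT1, at 66.8 RPKM, and neither *Vegfb* (adjusted p = 0.154) nor *Pgf* (adjusted p = 0.692) passed the threshold. *Nrp1*, the VEGF coreceptor that also binds semaphorins, rose from 139 ± 26.9 to 215 ± 18.3 CPM (log2 fold change 0.63, standard error 0.13, adjusted p = 0.00976), with no overlap between genotypes. *Angpt2*, the context-dependent ligand of TEK, rose from 2.55 ± 0.373 to 5.31 ± 1.80 CPM (1.06, standard error 0.29, adjusted p = 0.0266), and *Bmpr2*, a type II receptor that acts with endoglin, from 35.0 ± 6.46 to 48.5 ± 4.75 CPM (0.47, standard error 0.14, adjusted p = 0.0416). *Nrp1* kept its call without any 1 library, and was the only call of the 3 without control replicate 71, 72 or 73 or mutant replicate 79.

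**Figure D5:**
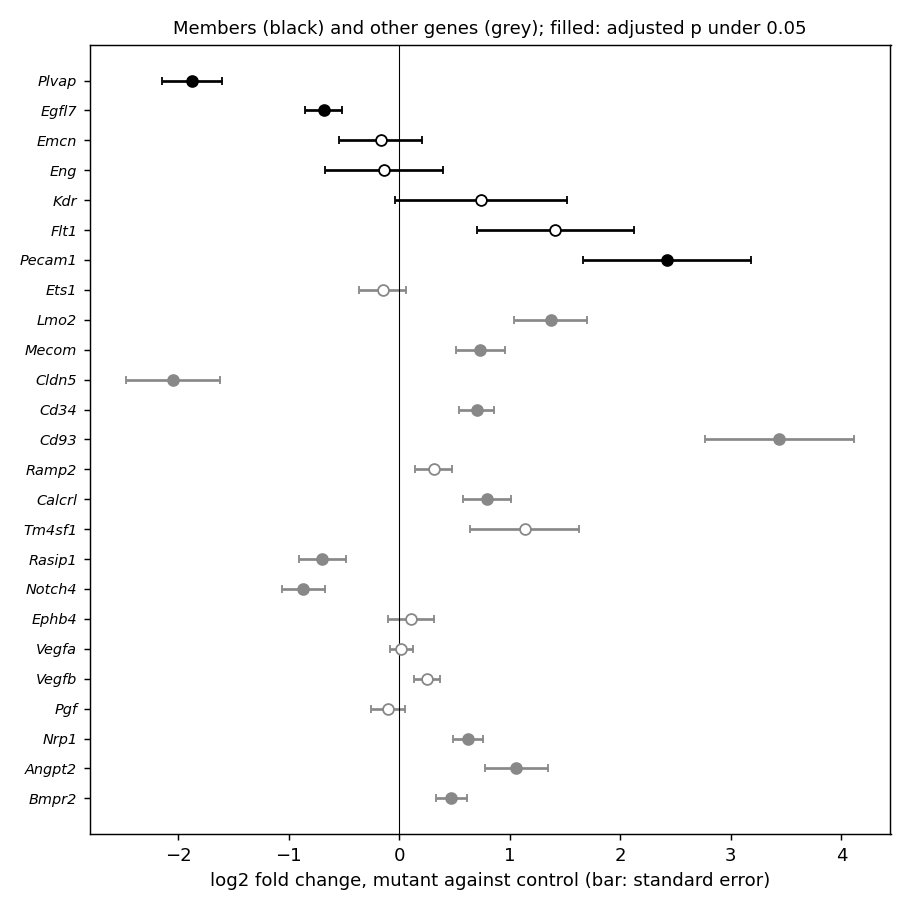
Log2 fold change, mutant against control, with its standard error for the 7 members tested (black) and for named endothelial, ligand and partner genes (grey), filled where the adjusted p-value was under 0.05. *Plvap* at −1.88 and *Cldn5* at −2.04 lie at the low end, and *Pecam1* at 2.42 and *Cd93* at 3.44 at the high end.

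The centred log2 CPM averaged over the 7 tested members mixes genes that were lower and higher in mutant cells, and ranged from −0.72 in mutant replicate 78 to 0.88 in mutant replicate 74. The 5 tested genes nearest to this average over 9 libraries, among 13279 with a mean of at least 1 CPM, were *Gm6548*, *Mterf1b*, *Elmod1*, *Large* and *Ddx59*, with root mean square differences of 0.27 to 0.31 on the log2 scale, against 0.46 for the size of the average profile itself.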

How the data were processed

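RNA was amplified from low input and poly(A)-selected libraries without strand information were sequenced, per the labels. The authors counted reads per gene and deposited 1 column of raw counts per library. The submitters' processing notes name STAR, DESeq2 and mm10; the counter and annotation are not given in the sources used here, nor is the way gene length (used here for RPKM) was set. The authors' FPKM values, group signals, fold changes and p-values were not used. The genes and lists were chosen with earlier results of these data known. All listed symbols but Ahsp were matched, Adgrl4 and Adgre1 through older symbols. Counts were fitted in R 4.3.3 with edgeR 4.0.16 (filterByExpr, TMM, robust quasi-likelihood test, Benjamini-Hochberg over all tested genes) and checked on simulated data. Standard errors were derived from the fold change and its F statistic. For each member, mean CPM was also compared by a 2-sided exact permutation test (126 arrangements). Alternatives were DESeq2 1.42.0, limma-voom (limma 3.58.1) with sample quality weights, RLE and upper-quartile factors, 2 other filters, and each library left out. Named genes are the members, the called genes of the 3 endothelial context lists and the 3 of highest level per length in each, and the 5 nearest genes by profile; others were named after their values were seen. Figures were made with matplotlib 3.10.9.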

Additional observations from a re-analysis of the deposited data

Results flagged for a closer look

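Dixon's gap test at the 95% level marked 4 of 80 groups of libraries for 1 library standing apart; about 1 in 20, or 4, would be marked by chance. *Tie1* was at 0.156 CPM in control replicate 72, from 4 reads, with the other control libraries at 0. *Cdh5* was at 0.0422 CPM in control replicate 76, from 1 read, with the others at 0. *Cdh5* was at 0.724 CPM in mutant replicate 74, against 0.0984 to 0.255 CPM in the other mutant libraries. The summed level of the 10 progenitor markers was 2724 CPM in control replicate 76, against 2259 to 2312 CPM in the other control libraries.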

How the results depend on the processing

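No paired analysis was possible because the replicate numbers of control and mutant libraries do not overlap. *Plvap* kept its direction and its call in all 15 alternatives, with log2 fold changes from −2.06 to −1.70, and *Egfl7* in 14 of 15, the exception being the fit without control replicate 73. The number of members called was 3, 4 with DESeq2 and without a filter (*Cdh5* added) and 2 with at least 10 counts in every library, and 1 to 3 with 1 library left out. *Kdr* reversed to −0.96 with limma-voom and −0.079 without mutant replicate 74, *Emcn* to 0.23 without control replicate 73, and *Eng* to 0.23 without control replicate 76 and 0.07 without mutant replicate 75; none of these passed the threshold in any fit, and the cause was not tested. With 1 library left out the log2 fold changes ranged from −0.079 to 1.06 for *Kdr*, −0.39 to 0.23 for *Emcn* and −0.37 to 0.23 for *Eng*. With limma-voom 4858 genes in all and 13 of the 41 other endothelial genes were called, against 2225 and 8; with 1 library left out the ranges were 1046 (control replicate 73) to 3136 (mutant replicate 74) and 3 to 9, and 1 to 3 for the ligands and partners, of which DESeq2 and limma-voom called 3 higher and 1 (*Angpt4*) lower. The summed level of members, mutant over control, ranged from 0.527 to 0.589, limma-voom giving no separate value. In control libraries *Plvap* stood at 3.10% of *Six2* in CPM, against 3.27% per length. *Tek*, *Tie1*, *Cdh5* and *Eng* had at most 25 reads in any library, and *Pecam1* 24 over all control libraries.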
